A study of Mus musculus with 6 samples.

Results

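The 5 genes described here code for macrophage surface receptors: Pilra and Pilrb1 of the paired immunoglobulin-like type 2 receptors (PILR), the adhesion receptors Emr4 and Emr1 (now named Adgre4 and Adgre1), and the signal regulatory protein Sirpa. They were taken by gene name from the non-control probes of the arrays, as 5 of 27361 gene names, and they had been picked from earlier results of these arrays as receptors lower with IL-4. All 5 were among the 19043 gene names tested, whose brightest probe had to be clear of background on 2 or more of the 6 arrays. The M2 minus M0 difference is therefore given as a description with no test, and so is M1 minus M0, which uses the same M0 arrays. For Emr1 and Sirpa the values below go against the description of the set, since neither stood clearly lower in M2.

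The study compared bone marrow-derived macrophages of C57BL/6 mice in which Foxo1, a forkhead transcription factor, was deleted, with cells that kept it. Knockout cells (KO) carried LysMcre together with FoxO1 Fl/Fl, so that Cre comes from the lysozyme M locus of myeloid cells, and control cells (WT) carried FoxO1 Fl/Fl without Cre, so that loss of Foxo1 and presence of Cre cannot be told apart. Marrow was grown for 7 days in 10% L929 conditioned medium. Each genotype was then studied as M2 cells, given IL-4 and IL-13 at 10 ng/ml each for 24 hours, as M1 cells, given 100 ng/ml of lipopolysaccharide (LPS) and 20 ng/ml of interferon-gamma for 24 hours, and as unstimulated M0 cells. There was 1 array for each genotype and state, so the spread given for a state difference is that between the 2 genotypes, and the labels do not say whether samples came from separate animals.

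PILR-alpha is an inhibitory receptor with a cytoplasmic ITIM motif that recruits the phosphatase SHP-1, while PILR-beta lacks it and signals through the adaptor DAP12; both recognise sialylated O-glycosylated proteins on other cells. Emr1 codes for F4/80, the classical surface marker of mouse macrophages, and Emr4 for a related adhesion G protein-coupled receptor of myeloid cells. SIRP-alpha binds CD47 on neighbouring cells and, through SHP-1 and SHP-2, restrains phagocytosis.

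Values are log2 processed signals relative to the 75th percentile of the same array (532 to 627 signal units). Levels of different probes cannot be set against each other. The Foxo1 probe gave 282, 165 and 224 units in KO M2, M1 and M0 cells, against 1559, 1144 and 1505 units in WT M2, M1 and M0 cells, so it was lower in KO in every state, by 2.78 ± 0.13 (SE) in log2 (adjusted p = 0.305 in limma). Macrophage identity genes lay above the 75th percentile on all 6 arrays for 18 of 20, Csf1r, Cd68 and Itgam being on the list. In WT M0 cells 8 liver transcripts summed to 31.5 times the array's 75th percentile, against 0.104 to 1.27 on the other 5 arrays. KO signals or levels are therefore given apart from those of WT for the 5 genes and Pilrb2. Most list genes and neighbours have only a mean over both genotypes, which includes the WT M0 array. The WT M0 and WT M1 arrays shared a slide and the other 4 arrays lay on a second slide. KO minus WT in M1 and in M0, and M2 minus M0 in WT cells, are therefore also differences between slides. As these are whole cultures, fewer cells that carry a transcript and less of it per cell cannot be told apart.

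The sequences that read out the PILR genes are shown because the genes are close copies. The brightest Pilra probe lies at chr5:138264800-138265232 and spans an intron, the single Pilrb1 probe at chr5:138293523-138293582, and the brightest probe of the third gene of the cluster, Pilrb2, at chr5:138312445-138312821, all on the minus strand of mm9. The longest run of bases shared by the Pilra and Pilrb1 probes was 6. That compares the probes with each other only. Whether a probe also binds transcripts of the other PILR genes was not tested. The Pilrb1 probe is annotated to transcripts of both Pilrb1 and Pilrb2, so its signal may hold either.
Pilra probe: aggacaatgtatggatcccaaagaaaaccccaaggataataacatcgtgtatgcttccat
Pilrb1 probe: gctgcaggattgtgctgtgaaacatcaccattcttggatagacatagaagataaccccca
Pilrb2 probe: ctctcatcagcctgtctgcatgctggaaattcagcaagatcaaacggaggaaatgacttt

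The inhibitory receptor Pilra was lower in M2 cells and higher in M1 cells than in M0 cells, in both genotypes. Its signal was 111, 6264 and 1476 units in KO M2, M1 and M0 cells, against 149, 7841 and 1764 units in WT M2, M1 and M0 cells. The M2 arrays were thus the lowest and the M1 arrays the highest of each genotype, and the 3 states did not overlap. M2 minus M0 was -3.80 in KO and -3.61 in WT cells, a mean of -3.71 ± 0.13 (SD, n = 2), or 13.1-fold lower. M1 minus M0 was 2.13 in KO and 2.01 in WT cells, a mean of 2.07 ± 0.08 (SD, n = 2), or 4.19-fold higher. A second, dimmer Pilra probe was not well above background on either M2 array, so that M2 was at least 13.1-fold lower than M0 there, taking for each dim array the lowest signal of any probe well above background on it; its M1 minus M0 difference averaged 2.24.

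Pilrb1, the activating partner, had the same order of states. Its signal was 236, 8437 and 4420 units in KO M2, M1 and M0 cells, against 282, 9276 and 5092 units in WT M2, M1 and M0 cells. M2 minus M0 was -4.29 in KO and -4.22 in WT cells, a mean of -4.26 ± 0.05 (SD, n = 2), or 19.1-fold lower. M1 minus M0 was smaller than for Pilra, at 0.98 in KO and 0.72 in WT cells, a mean of 0.85 ± 0.18 (SD, n = 2). Under the authors' deposited table this mean was 0.51 and after quantile normalization 0.52, more than 1.5 times smaller.

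Pilrb2, also a DAP12-coupled receptor and not one of the 5 genes, moved as its neighbours did. Its brightest probe had levels of -3.97, 0.72 and -0.53 in KO M2, M1 and M0 cells, against -3.30, 0.80 and -0.30 in WT M2, M1 and M0 cells. M2 minus M0 was -3.44 in KO and -3.00 in WT cells, and M1 minus M0 was 1.25 in KO and 1.10 in WT cells. A second Pilrb2 probe gave -4.57 and -4.16 for M2 minus M0 in KO and WT cells, but -0.21 for M1 minus M0 in both, so the probes disagree on M1. Across the 6 arrays the levels of Pilra and Pilrb1 correlated at r = 0.98 and those of Pilra and Pilrb2 at r = 0.99, which describes 6 arrays of 3 states that share a scale.

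**Figure D1:**
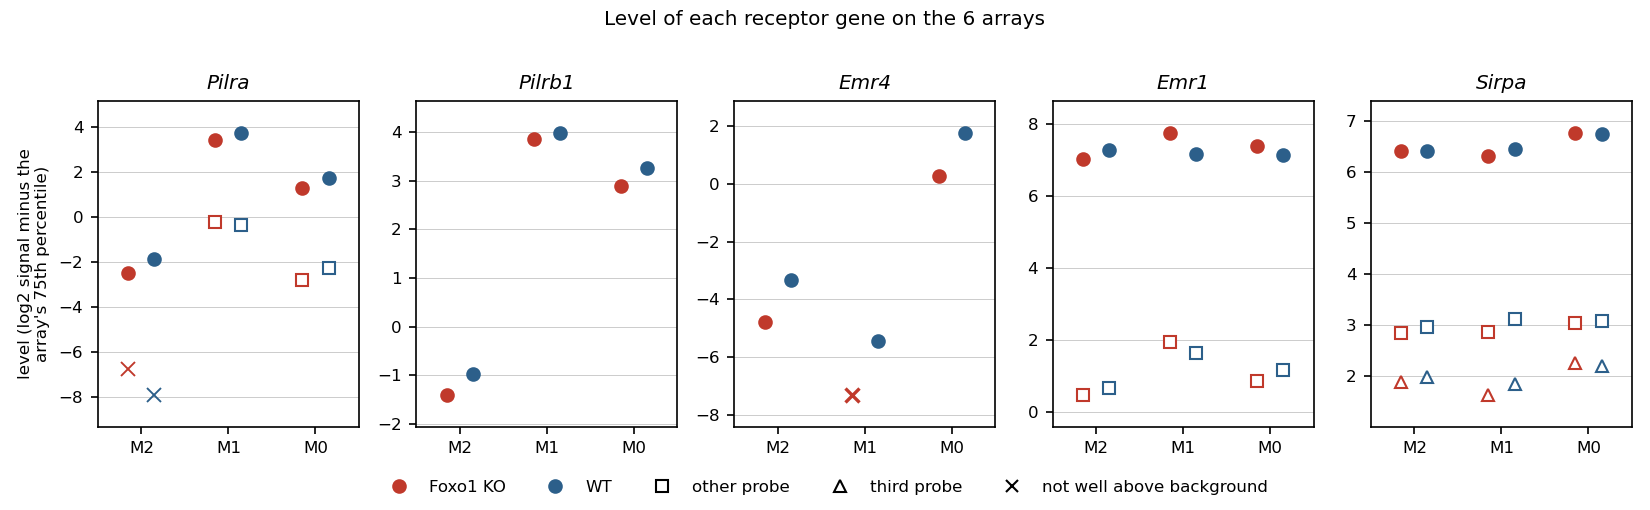
Level of each receptor gene (y axis, log2 signal minus the array's 75th percentile) on the 6 arrays, 1 array per point, by state (x axis) and genotype (KO red, left; WT blue, right); filled circles are the brightest probe, open symbols other probes and crosses spots not well above background. Pilra and Pilrb1 are lowest in M2 and highest in M1, Emr4 is highest in M0, and the brightest probes of Emr1 and Sirpa stay within 1 log2 unit.

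**Figure D2:**
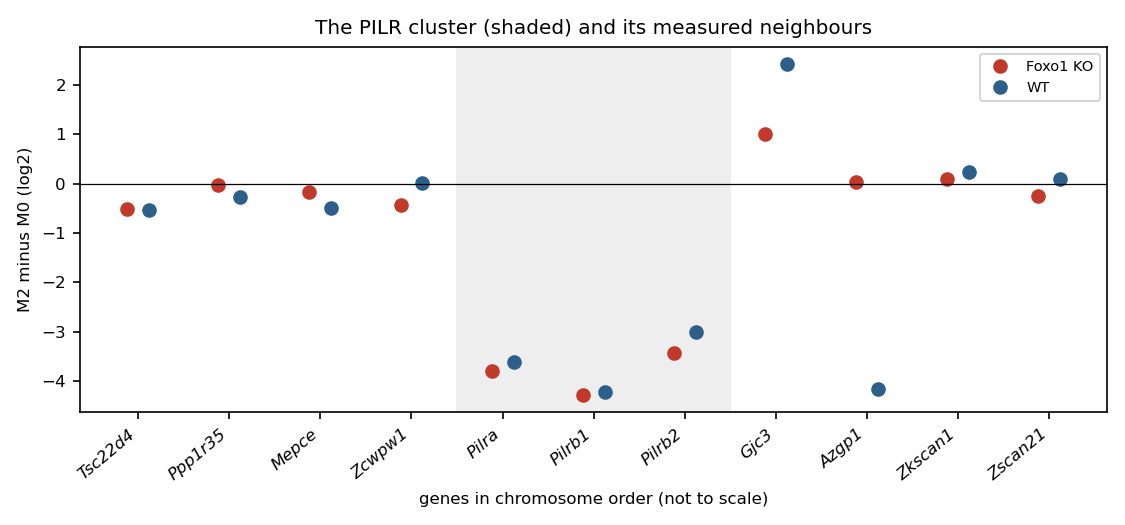
M2 minus M0 (y axis, log2) in KO (red) and WT (blue) cells for the PILR genes (shaded) and the measured genes on either side in chromosome order (x axis, not to scale), 1 difference between 2 arrays per point. The PILR genes lie between -4.29 and -3.00, and the other genes lie above -1 apart from Azgp1 in WT cells.

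Most measured genes on either side of the PILR cluster differed much less between M2 and M0 than the PILR genes, as the plot of the cluster and its neighbours shows. On one side the mean M2 minus M0 difference was -0.21 for Zcwpw1, -0.33 for Mepce, -0.14 for Ppp1r35 and -0.52 for Tsc22d4. On the other side it was 0.17 for Zkscan1 and -0.08 for Zscan21. Azgp1, a secreted glycoprotein made in liver, gave 0.04 in KO and -4.17 in WT cells, where the WT M0 array carries liver transcripts; the part of those transcripts was not tested. Gjc3 was well above background on 2 arrays only.

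The RefSeq promoter windows of the PILR genes (300 bases around the annotated start, GRCm38.p6, minus strand) are shown because the 3 genes moved together. Pilra's window is chr5:137836229-137836528, Pilrb1's chr5:137858000-137858299 and Pilrb2's chr5:137871709-137872008. Bases 55 to 300 of the Pilra window aligned with bases 1 to 246 of the Pilrb1 window with 242 of 246 identical and no gap, and with 244 of 246 of the Pilrb2 window. Capitals mark the 4 bases of the Pilra window that differ from Pilrb1, the same 4 places in Pilrb1, and the 2 bases of Pilrb2 that differ from Pilra within the aligned stretch.
Pilra promoter: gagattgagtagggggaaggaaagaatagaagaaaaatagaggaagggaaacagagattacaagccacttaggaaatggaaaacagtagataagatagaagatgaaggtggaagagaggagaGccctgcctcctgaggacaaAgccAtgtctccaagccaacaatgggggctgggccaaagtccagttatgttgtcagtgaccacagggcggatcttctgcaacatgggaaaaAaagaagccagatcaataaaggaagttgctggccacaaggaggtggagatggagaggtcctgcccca
Pilrb1 promoter: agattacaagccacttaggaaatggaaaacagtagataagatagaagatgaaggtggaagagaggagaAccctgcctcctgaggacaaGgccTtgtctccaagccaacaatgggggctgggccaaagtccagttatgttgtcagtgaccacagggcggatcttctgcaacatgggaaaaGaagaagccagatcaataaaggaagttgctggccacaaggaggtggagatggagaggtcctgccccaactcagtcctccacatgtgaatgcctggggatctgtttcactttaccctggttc
Pilrb2 promoter: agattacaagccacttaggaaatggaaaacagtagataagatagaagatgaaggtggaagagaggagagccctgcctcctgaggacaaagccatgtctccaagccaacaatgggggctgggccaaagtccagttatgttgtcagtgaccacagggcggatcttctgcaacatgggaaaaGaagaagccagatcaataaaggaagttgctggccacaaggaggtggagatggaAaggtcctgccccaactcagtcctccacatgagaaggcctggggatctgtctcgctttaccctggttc

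Motifs were searched on both strands of these windows and of the Adgre4 window. A repeat of the type found in interferon-stimulated response elements stood in all 3 PILR windows as gaaatggaaa, at position -178 from the Pilra start and -232 from the Pilrb1 and Pilrb2 starts, and was in 3.44% of 32851 promoter windows. The RUNX core TGTGGT was present in all 4 windows and in 16.8% of all windows. The PU.1 core GAGGAA was present in the Pilra and Adgre4 windows and in 28.3% of all. The STAT6-type palindrome, the AP-1 site TGANTCA and the KLF core CACCC were not in the 4 windows, against 6.95%, 7.81% and 57.5% of all windows. A match here is a run of letters and no more.

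Emr4 differed from the PILR genes in that it was lower than M0 in both polarized states. Its single probe (chr17:55992348-55992407 of mm9, plus strand) gave 22.6, 3.65 and 733 units in KO M2, M1 and M0 cells, against 55.0, 13.4 and 1828 units in WT M2, M1 and M0 cells. The M0 arrays were the highest of each genotype by a wide margin, and the KO M1 spot was not well above background. M2 minus M0 was -5.08 in KO and -5.11 in WT cells, a mean of -5.09 ± 0.02 (SD, n = 2), or 34.2-fold lower. M1 minus M0 was -7.23 in WT cells, or 150-fold lower, and in KO cells M1 was at least 82.1-fold lower than M0. That bound takes the KO M1 spot at 8.67 units, the lowest signal of any probe well above background on its array. A spot not well above background can hold more than this, so the bound depends on the floor. With normexp background correction, which raises dim signals, the mean M1 minus M0 difference of Emr4 was smaller, at -4.01.

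Emr1 was bright on every array. Its brightest probe (chr17:57622843-57622902 of mm9, plus strand) had levels of 7.02, 7.76 and 7.38 in KO M2, M1 and M0 cells, against 7.27, 7.17 and 7.15 in WT M2, M1 and M0 cells. The order of the states was not the same in the 2 genotypes: M2 was lowest in KO and highest in WT cells. M2 minus M0 was -0.36 in KO and 0.12 in WT cells, a mean of -0.12 ± 0.34 (SD, n = 2), within the spread of the genotypes. The mean changed sign with normexp correction, to 0.08, and without the KO M2 array, to 0.21. M1 minus M0 averaged 0.20 ± 0.25 (SD, n = 2), with a mean of -0.29 under the authors' deposited table and -0.13 after quantile normalization, so its direction depends on the scaling. A second Emr1 probe, at chr17:57550221-57550280, gave -0.40 and -0.49 for M2 minus M0 and 1.08 and 0.48 for M1 minus M0 in KO and WT cells.

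The Sirpa differences were small. Its brightest probe (chr2:129457869-129457928 of mm9, plus strand) had levels of 6.40, 6.32 and 6.77 in KO M2, M1 and M0 cells, against 6.42, 6.45 and 6.74 in WT M2, M1 and M0 cells. M0 was the highest state in both genotypes, and M2 and M1 lay close together. M2 minus M0 was -0.37 in KO and -0.32 in WT cells, a mean of -0.35 ± 0.03 (SD, n = 2), and M1 minus M0 averaged -0.37 ± 0.11 (SD, n = 2). Over the alternatives run these means stayed below 0 but moved by over 1.5 times, between -0.52 and -0.14 for M2 and between -0.79 and -0.14 for M1. The other 2 Sirpa probes gave -0.21 and -0.38 in KO cells and -0.12 and -0.21 in WT cells for M2 minus M0. For M1 minus M0 they gave -0.17 and -0.63 in KO cells and 0.04 and -0.36 in WT cells. By the first of these probes M0 was therefore not the highest state in WT cells.

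**Figure D3:**
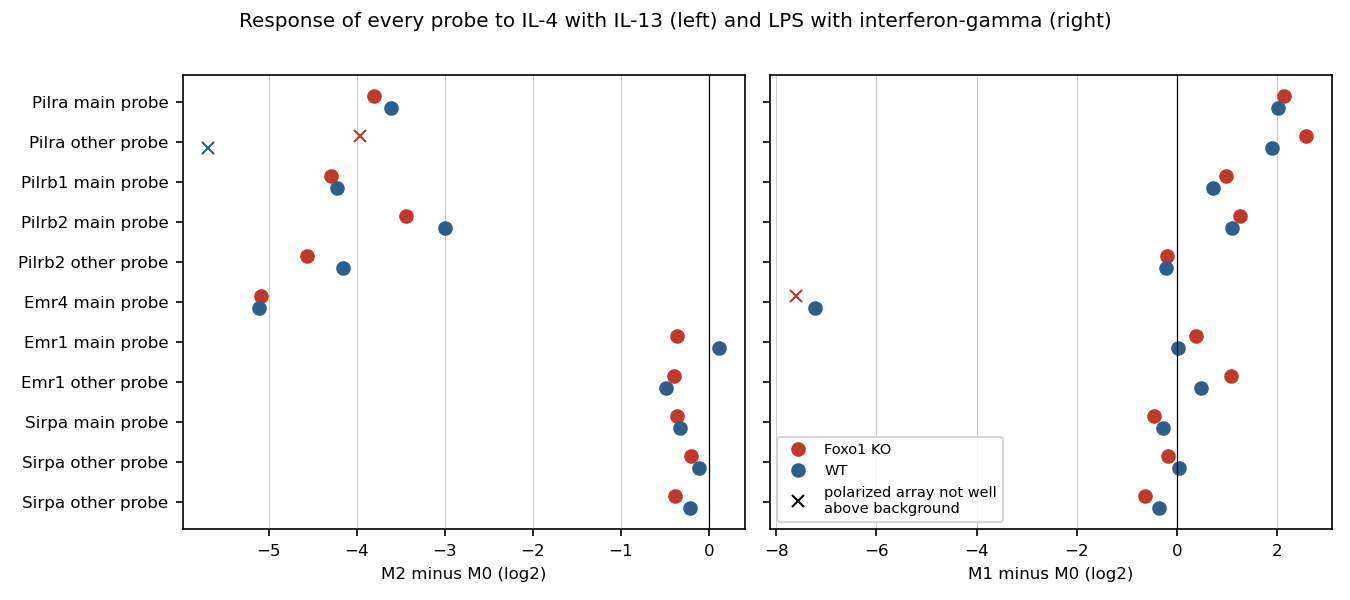
M2 minus M0 (left) and M1 minus M0 (right), log2 on the x axes, for every probe of the 5 genes and of Pilrb2 (rows) in KO (red) and WT (blue) cells, 1 difference between 2 arrays per point; crosses mark polarized arrays not well above background. In M2 the PILR and Emr4 probes lie at -3.00 or lower and the Emr1 and Sirpa probes between -0.49 and 0.12; in M1 the Pilra probes lie to the right of 0 and Emr4 far to the left.

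Against all tested genes, the set splits. At least 2-fold lower in M2 than in M0 in both genotypes were 3 of the 5 (Pilra, Pilrb1 and Emr4), against 3.23% of all genes. The set was chosen on this contrast, so nothing is read from the count. Ordered from the lowest M2 minus M0 difference of 19043, Emr4 was at place 2, Pilrb1 at 13, Pilra at 22 and Pilrb2 at 45, while Sirpa was at 3625 and Emr1 at 6255. Pilra was the 1 of the 5 that was also at least 2-fold higher in M1 in both genotypes, as 8.96% of all genes were and 0.599% together with the M2 drop, and Emr4 the 1 at least 2-fold lower in both polarized states, a pattern of 1.4%. The median over the 5 was -3.71 for M2 minus M0 and 0.20 for M1 minus M0, beside 0.08 and 0.03 over all tested genes.

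**Figure D4:**
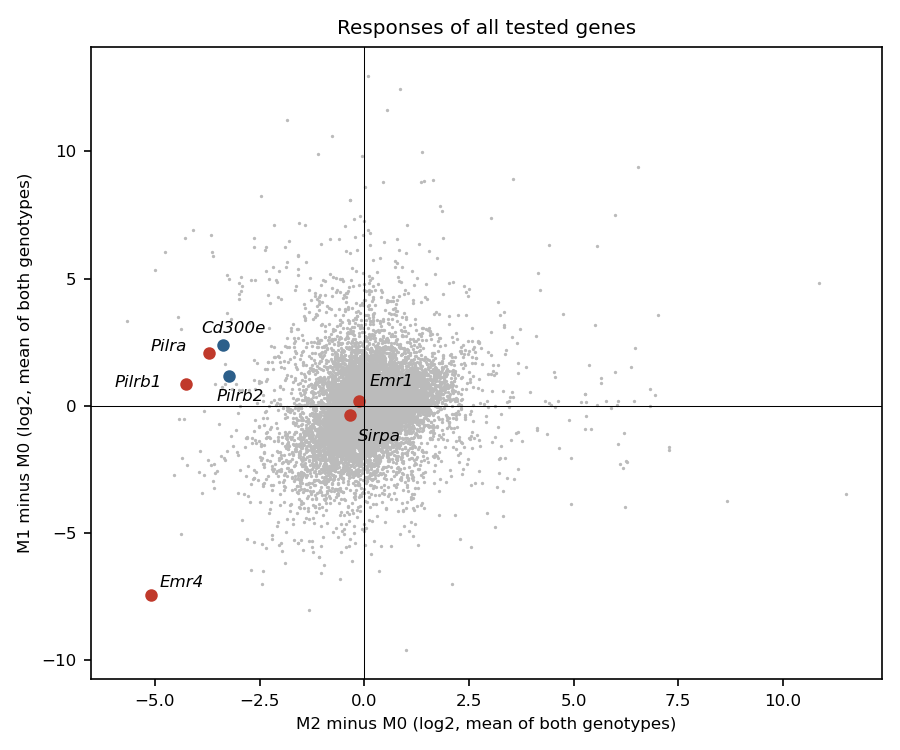
Mean M2 minus M0 (x axis, log2) and mean M1 minus M0 (y axis, log2) over both genotypes for all 19043 tested genes (grey), with the 5 receptor genes in red and Pilrb2 and Cd300e in blue; both axes use the same M0 arrays. The PILR genes and Cd300e lie at the upper left, Emr4 at the lower left and Emr1 and Sirpa near 0.

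The comparison of KO with WT cells was not used to choose the genes and asks whether loss of Foxo1 moved them. limma's additive model of state and genotype, with Benjamini-Hochberg adjustment over all tested genes, called 0 of the 5 at an adjusted p under 0.05, as it called 0 of 19043 genes (0%); 2157 genes (11.3%) had an unadjusted p under 0.05, and limma with an intensity-trend prior called 32 genes, none of the 5 among them. The median over the 5 genes was -0.31, beside 0.09 over all genes.

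Emr4 was lower in KO cells in each state, by 1.47 in log2 in M2, by at least 1.54-fold in M1, where the KO spot was not well above background, and by 1.49 in log2 in M0. limma gave a KO minus WT difference of -1.61 ± 0.15 (SE), with an unadjusted p of 0.000536 and an adjusted p of 0.305, lower in 3 of 3 states. This estimate and its p take the KO M1 spot at its measured value, although it was not well above background; without the KO M1 array the difference was -1.48, and the adjusted p was 0.667. An unadjusted p under 0.001 with a lower level in KO was found for 0.11% of genes, and a level at least 2-fold lower in KO in both M2 and M0 for 1.28%. Both M2 arrays lie on 1 slide, and the M2 difference of -1.47 is therefore also the value with slide as a block. In M1 and M0 the KO and WT arrays lay on different slides, so genotype and slide cannot be told apart there. With normexp correction the difference was -0.78, less than what the processed signal gave by over 1.5 times.

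Some markers of monocytes, stromal cells and neutrophils were lower in KO cells, as Emr4 was. Over all tested genes 15.1% were lower in KO in all 3 states. Of the remaining lists, 2 of 7 dendritic cell, 1 of 4 eosinophil, 1 of 4 B cell and 0 of 4 T and NK cell markers were. Among the B cell markers 1 was higher in KO in all 3 states. Of 8 tested monocyte markers 6 were lower in KO in all 3 states, and they summed to 1.72 to 73.5 times the array's 75th percentile in KO cells, against 3.58 to 185 in WT cells. Of 8 stromal markers 7 were lower in KO in all 3 states, with sums of 4.39 to 6.38 in KO cells, against 7.83 to 17.4 in WT cells. Of 10 neutrophil markers 5 were lower in KO in all 3 states, with sums of 3.74 to 13.5 in KO cells, against 3.62 to 80.3 in WT cells. Every monocyte, stromal and neutrophil marker named by the files was well above background on at least 1 array. Their part in the Emr4 difference was not tested.

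Monocyte and stromal markers were also lower in M2, with 7 of 8 of each list lower than in M0 in both genotypes. At least 2-fold lower in both genotypes were 4 of 8 monocyte, 3 of 8 stromal and 4 of 10 neutrophil markers, against 3.23% of all genes. For lower or higher levels of any size in M2 the share of all genes was not computed, so those counts have no background. The monocyte list summed to 1.72 in KO M2 and 3.58 in WT M2 cells, against 4.39 in KO M0 and 13.2 in WT M0 cells. In M1 it stood at 73.5 in KO and 185 in WT cells, mostly from Ly6c2, whose level there was 6.06 in KO and 7.46 in WT cells, while Ccr2 differed by -1.22 and Nr4a1 by -2.02 between M1 and M0. The stromal list summed to 4.39 in KO M2 and 9.37 in WT M2 cells, against 6.38 in KO M0 and 17.4 in WT M0 cells. The eosinophil list was higher in M2, at 17.8 in KO and 35.9 in WT cells, against 2.84 in KO M0 and 2.48 in WT M0 cells. Its M2 sum came mostly from Ear1, whose level there was 4.03 in KO and 5.11 in WT cells. Of its 4 tested genes 3 were higher in M2 in both genotypes, while Ccr3 differed by -1.75 in KO and -0.94 in WT cells. Epx, Prg3 and Il5ra were not well above background on any array, and Prg2 was on 2 arrays only. The dendritic cell list was also higher in M2, with 5 of 7 genes higher in both genotypes. It summed to 129 in KO and 187 in WT cells, against 15.9 in KO M0 and 10.5 in WT M0 cells. This M2 sum came mostly from Itgax, whose level there was 6.85 in KO and 7.24 in WT cells. Flt3, Zbtb46 and Xcr1 were higher in M2 in both genotypes, but their M2 levels lay between -3.55 and -1.46. On no array was the list's gene Cd209a well above background. The neutrophil list was lower in M2 for 6 of 10 genes in both genotypes, with sums of 5.31 in KO and 25.4 in WT cells, against 13.5 in KO M0 and 80.3 in WT M0 cells. Their part in the M2 differences of Pilra, Pilrb1 and Emr4 was not tested.

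The KO minus WT differences of the PILR genes were small. Pilra was lower in KO cells by 0.62, 0.31 and 0.43 in log2 in M2, M1 and M0, and limma gave -0.45 ± 0.14 (SE), with an adjusted p of 0.412. The second Pilra probe did not follow this, at 0.14 in M1 and -0.54 in M0, and with the probes averaged the Pilra difference was -0.10. Pilrb1 gave -0.44, -0.12 and -0.38 in M2, M1 and M0, and -0.31 ± 0.14 (SE) in limma, with an adjusted p of 0.477. Lower in KO in all 3 states by their measured levels were Pilra, Pilrb1 and Emr4, 3 of the 5 genes, against 15.1% of all genes. Emr1 gave 0.19 ± 0.21 (SE), with an adjusted p of 0.697, a value that was -0.25 with slide as a block and -0.01 without either M1 array. Sirpa gave -0.04 ± 0.13 (SE), with an adjusted p of 0.897, and its per-state differences lay between -0.13 and 0.03.

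**Figure D5:**
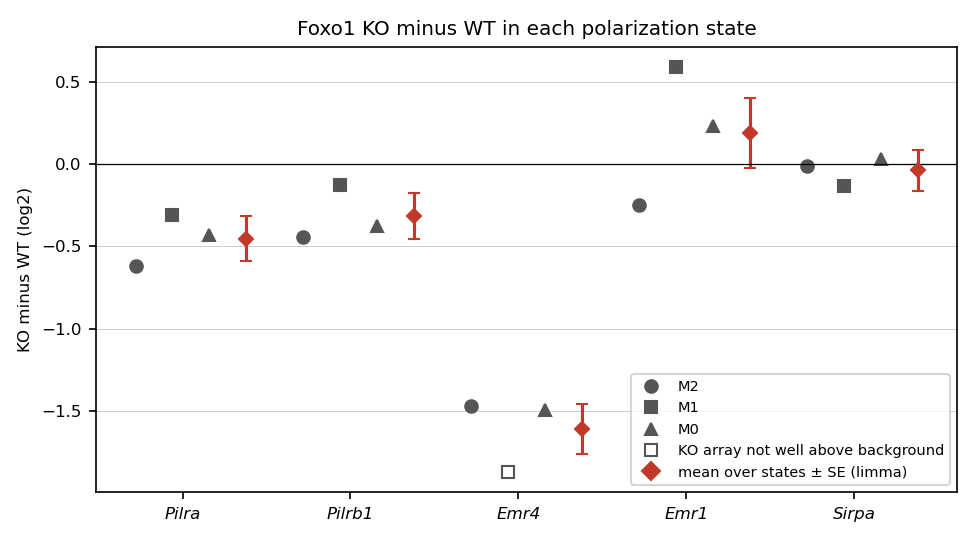
KO minus WT (y axis, log2) for the 5 receptor genes (x axis) in M2 (circles), M1 (squares; open where the KO spot was not well above background) and M0 (triangles), each a difference between 2 arrays, with the limma mean over the 3 states ± SE in red. Emr4 lies at -1.47 in M2 and -1.49 in M0, with its open M1 symbol at a measured value that bounds the difference only, Pilra and Pilrb1 between -0.62 and -0.12, and Emr1 and Sirpa on both sides of 0.

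The ligands, adaptors and relatives of these receptors were described from gene lists, leaving out the 5 genes themselves. The calls below come from limma's M1 against M0 contrast, in which 25.6% of all genes were called (11.6% rose and 14% fell), and all of them were lost when any 1 of the 4 M1 and M0 arrays was left out. In M2 against M0, where 0.084% of all genes were called (0.063% rose and 0.021% fell), no gene of these lists was called, so M2 values are given as differences only. That count depends on the processing: of the ligands and partners 4 were called with median centring, 4 with the filter for all 6 arrays and 1 each with quantile normalization and the authors' deposited table, and of the activating receptors 5, 4, 3 and 3. Of the adaptors, kinases and phosphatases 1 was called with the filter for all 6 arrays. In KO against WT none was called either.

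Of 11 tested PILR and SIRP ligands and partners 7 rose and 3 fell in M1, with a median difference of 1.13. Cd47, the ligand of SIRP-alpha, rose by 1.13 in M1 (adjusted p = 0.0231 in limma) and stood at 0.02 in M2. Pianp, a ligand of PILR-alpha, also fell in M1 (adjusted p = 0.0112 in limma), but its WT M1 spot was not well above background, so no size is given. Colec12, a scavenger receptor with a collagen-like stalk that also binds PILR-alpha, fell by 2.90 (adjusted p = 0.0142 in limma). Sirpb1b, an activating SIRP, rose by 2.13 in M1 (adjusted p = 0.0109 in limma) and differed by -1.99 in M2. In M2 the list's median difference was -0.88, and 5 of 11 were at least 2-fold lower in both genotypes, against 3.23% of all genes. These 5 were Colec12, Thbs1, Fyb and the receptors Pilrb2 and Sirpb1b. Pilrb2 is not independent of the members, since the Pilrb1 probe is annotated to its transcripts as well.

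Among 18 tested adhesion G protein-coupled receptors other than Emr1 and Emr4, none rose and 6 fell in M1, with a median of -0.53. Cd97, the closest relative of the Emr genes and a receptor for CD55, fell by 1.87 in M1 (adjusted p = 0.0121 in limma) and stood at 0.57 in M2. Lphn2, a latrophilin, fell by 3.57 in M1 (adjusted p = 0.00715 in limma) and Gpr124, an adhesion receptor of brain vessels, by 2.58 (adjusted p = 0.00934 in limma). In M2 the median of the list was 0.36, and 1 of 18 was at least 2-fold lower in both genotypes.

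Of 21 tested inhibitory receptors with an ITIM 7 rose and 4 fell in M1, and of 19 activating receptors that use DAP12 or the Fc receptor gamma chain 5 rose and 3 fell. Clec4e (Mincle), a receptor for mycobacterial glycolipid, rose by 4.93 in M1 (adjusted p = 0.00681 in limma) and differed by -2.71 in M2. Cd300e, an activating receptor, rose by 2.38 in M1 (adjusted p = 0.0161 in limma) and differed by -3.38 in M2. In M2 the median was -0.85 over the activating receptors, with 7 of 19 at least 2-fold lower in both genotypes, and 0.33 over the inhibitory receptors, with 1 of 21 lower.

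Of 22 adaptors, kinases and phosphatases 7 rose and none fell in M1. Tyrobp, which codes for DAP12, stood at -0.28 in M1 and -0.05 in M2, without passing the test. Ptpn6, which codes for SHP-1, rose by 0.93 in M1 (adjusted p = 0.0296 in limma) and stood at -0.75 in M2, while Ptpn11, which codes for SHP-2, stood at 0.12 in M1 and -0.03 in M2. The M1 polarization list served as a check of the treatment and rose for 15 of 16 genes. Of the M2 polarization list 16 of 18 were at least 2-fold higher in M2 in both genotypes, a share not computed over all genes.

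Genes were ranked by likeness to each receptor as the root mean square difference of levels over the 6 arrays, each gene centred on its own mean. Candidates were limited to 15877 genes, those clear of background on each of the 6 arrays. Cd300e was most like Pilra, at 0.315 with r = 0.991, followed by Pilrb1 and Pilrb2. Pilrb2 was most like Pilrb1, at 0.439. Among these candidates the gene most like Emr4 was Arap3, at 1.11 with r = 0.976. This measure takes the dim KO M1 spot of Emr4 at its measured value. Genes dim on any array, as Emr4 was in KO M1, were not compared, so a closer gene may have been missed. The gene most like the mean of the 5 was Ctla2b, at 0.243, followed by Ctla2a and the lipoprotein receptor Tlr2. These are rankings over 6 arrays and 3 states.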

How the data were processed

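RNA from 6 macrophage samples was measured on 1-colour Agilent 4x44K mouse arrays. The authors deposited the spot intensity values of each array, which per the file headers came out of Agilent Feature Extraction 10.7.3.1 with the processed signal already background-subtracted. They also deposited a table of log2 values of the same arrays, of unstated centring, which served as an alternative.

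Control spots and outlier-flagged spots (79 to 164 of 43379 per array) were left out, spots of a probe averaged, and 37 of 41174 probes dropped. No spot was saturated. Log2 processed signal minus each array's 75th percentile was used, with the brightest probe standing for a gene and every probe of the 5 genes shown. limma 3.58.1 (R 4.3.3) fitted state and genotype additively with 2 residual degrees of freedom. The script was tested on simulated data. Promoter windows were aligned with Biopython 1.88. Precision is limited by the number of arrays. No genotype and state had a repeat array, so the SEs and p-values of limma rest on departures from the additive fit. To these limma added a prior from all genes, with 1.88 degrees of freedom. The SEs and p-values therefore do not measure the spread between repeat samples or animals.

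Genes named are the 5 members, fixed partner genes, up to 3 called genes of each list with the largest M1 difference, left out where a spot was near background, and the genes most like the members. Cd300e in its list, and other genes outside this rule, were chosen after their values were seen. The members and lists were chosen with earlier results of these data known.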

Additional observations from a re-analysis of the deposited data

Results flagged for a closer look

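For Emr1, M2 minus M0 went opposite ways in the 2 genotypes, at -0.36 in KO and 0.12 in WT cells, a gap of -0.478. The same 4 arrays read the other way give KO minus WT of -0.25 in M2 and 0.23 in M0, a gap of -0.478. For Sirpa, KO minus WT was -0.01 in M2 against 0.03 in M0, a gap of -0.0411, and -0.13 in M1 against 0.03 in M0, a gap of -0.161. Each value is a difference between single arrays, and none of these gaps was tested.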

How the results depend on the processing

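The signs of the M2 minus M0 and M1 minus M0 differences of Pilra, Pilrb1 and Emr4 held under every alternative run, with M2 minus M0 between -4.27 and -3.09 for Pilra, between -4.40 and -3.79 for Pilrb1 and between -5.29 and -3.62 for Emr4. The KO minus WT difference of Emr4 lay between -1.82 and -0.78; the filter for all 6 arrays leaves Emr4 out. The count of genes called in M2 against M0, 16 here, was 0 with normexp correction, with no filter and with slide as a block, 147 with quantile normalization, 478 with median centring, 153 with the authors' deposited table, 275 with genes well above background on all 6 arrays and 1083 with an intensity-trend prior; leaving out each array gave 0 to 0, so that no M2 call of Pilra, Pilrb1 or Emr4 held under these settings of 0. The count in M1 against M0, 4873 here, was 1292 with normexp correction and 0 to 5444 when each array was left out. The count in KO against WT, 0 here, was 32 with the intensity-trend prior. The median over the 5 genes of M2 minus M0 was -4.26 when all probes of a gene were averaged and -3.09 with normexp correction. That of M1 minus M0 was -0.13 with quantile normalization, -0.29 with the authors' deposited table, 0.49 when probes were averaged and -0.10 to 0.50 when each array was left out. That of KO minus WT was -0.10 when probes were averaged. KO minus WT reversed for Emr1, to -0.25 with slide as a block and over a range of -0.0090 (without KO M1 or WT M1) to 0.41 when each array was left out, and for Sirpa, which ranged from -0.072 to 0.0082 (without KO M1 or WT M1). The median of all genes for M1 minus M0 was -0.35 with normexp correction and 0.26 with median centring. The cause of these shifts was not tested. No paired analysis was possible because the labels give no replicate numbers and each genotype and state had 1 array; state is already a term of the fit. Spots near background (Emr4 in KO M1, the second Pilra probe in M2) limit those differences to bounds, which depend on the floor taken for each array.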

Other observations

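The genes beside the other receptors did not share one pattern. Next to Emr4, Pot1b, a telomere-binding protein, differed by -1.50 in M2 and -2.62 in M1, and Zfp119a, on the other side, by -0.88 and -2.40, the signs that Emr4 had. Beyond Zfp119a, Zfp959 differed by -0.66 in M2 and -0.49 in M1, and Zfp119b by -0.28 and -0.13. Further out on that side, Ebi3, a cytokine subunit, differed by -1.25 in M2 and 1.41 in M1. Beyond Pot1b, Sgol1, Sult1c1 and St6gal2 stood above 0 in M2, at 0.24, 0.69 and 1.10. Near Sirpa, the cytokine gene Il1b differed by -3.00 in M2 and 4.82 in M1, the signs that Pilra had, while Sirpa itself differed by -0.35 and -0.37. These values are mean differences over both genotypes, chosen for mention after they were seen.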
